A study of Mus musculus with 14 samples.

Results

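The regions described here are 434 wide domains of H3K27me3, trimethylation of lysine 27 on histone H3, that had no peak of the mark in any library of cells treated with EPZ6438. They were selected on the peak lists themselves: every autosomal peak of at least 10 kb in replicate 1 of the wild-type (H3WT) cells in DMSO that overlapped no peak in any of the 4 EPZ6438 lists. That list held 11055 autosomal peaks, of which 640 were at least 10 kb wide, and the other 206 of these wide peaks touched an EPZ6438 peak. The absence of EPZ6438 peaks, the width and the presence in H3WT replicate 1 are thus the choice of the domains and not findings. A missing peak says that the authors' peak caller passed no threshold there, not that the mark was gone, and the EPZ6438 lists held only 201 to 340 peaks.

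The study mapped chromatin in mouse cells labelled PDGF neural stem cells, which the series' design text calls mouse DIPG (diffuse intrinsic pontine glioma) cells, by chromatin immunoprecipitation with sequencing. The H3WT cells expressed the wild-type form of histone H3.3. The K27M cells expressed a mutant H3.3 with methionine in place of the lysine at which H3 is trimethylated. Both genotypes were kept for 12 days in DMSO, the solvent, or in 3 µM EPZ6438 (EPZ), with 2 H3K27me3 libraries for each of the 4 groups. Suz12 and Ring1b were mapped in DMSO only, with 1 library per genotype. The labels name no promoter for the transgenes, no clone and no separate cultures, so how far the 2 libraries of a group are independent is not known. H3K27me3 peaks of H3WT replicate 1 lay at an end of 0 of 12 neural stem and glial progenitor genes examined (among them Sox2, Nes, Olig2 and Pdgfra), and those of H3WT replicate 2 at 1 of them.

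H3K27me3 is written by Polycomb repressive complex PRC2, whose catalytic subunit is usually Ezh2 and whose core subunit Suz12 is needed for its activity. Ring1b is the ubiquitin ligase of PRC1, a second Polycomb complex that can bind the mark. Together they hold genes of other lineages silent, often from CG-rich promoters, and the mark can spread from such sites into wide domains. EPZ6438 (tazemetostat) inhibits Ezh2, and K27M histone is known to lower the mark over most of the genome.

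The domains span promoters of very different base composition. The sequences of 6 gene starts inside them are shown because they cover that range and because those genes differ in the K27M lists described further on. Each is the 250 bases before the transcription start, 5′ to 3′ on the gene's strand, from RefSeq on GRCm38.p6 (the mm10 chromosomes), with every CG dinucleotide in capitals. Reln, a secreted guidance protein of the cortex, lies at chr5:22344706-22344955 (minus strand) and Neurog1, a proneural factor, at chr13:56252181-56252430 (minus strand). Igf2bp2, an RNA-binding protein of growing tissues, lies at chr16:22163300-22163549 (minus strand) and Elavl2, a neuronal RNA-binding protein, at chr4:91399985-91400234 (minus strand). Pou2af1, a B-cell coactivator, lies at chr9:51213440-51213689 (plus strand) and Jchain, the joining chain of secreted antibodies, at chr5:88527898-88528147 (minus strand).
Reln: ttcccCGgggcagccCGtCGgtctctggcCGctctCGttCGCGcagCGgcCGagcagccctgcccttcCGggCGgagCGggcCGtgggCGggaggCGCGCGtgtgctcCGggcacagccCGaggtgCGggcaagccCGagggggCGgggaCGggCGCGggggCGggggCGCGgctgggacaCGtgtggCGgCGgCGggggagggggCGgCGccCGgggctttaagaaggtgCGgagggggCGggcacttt
Neurog1: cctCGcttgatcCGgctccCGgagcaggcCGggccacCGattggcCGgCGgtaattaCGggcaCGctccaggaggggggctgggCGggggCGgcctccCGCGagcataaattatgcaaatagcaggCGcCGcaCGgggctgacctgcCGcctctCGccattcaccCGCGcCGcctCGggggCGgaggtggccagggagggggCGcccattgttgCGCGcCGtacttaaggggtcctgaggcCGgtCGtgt
Igf2bp2: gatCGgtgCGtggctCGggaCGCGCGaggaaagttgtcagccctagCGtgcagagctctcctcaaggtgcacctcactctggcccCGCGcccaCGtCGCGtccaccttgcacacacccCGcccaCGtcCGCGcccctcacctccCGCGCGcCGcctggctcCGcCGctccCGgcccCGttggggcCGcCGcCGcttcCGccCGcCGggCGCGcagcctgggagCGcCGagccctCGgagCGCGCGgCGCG
Elavl2: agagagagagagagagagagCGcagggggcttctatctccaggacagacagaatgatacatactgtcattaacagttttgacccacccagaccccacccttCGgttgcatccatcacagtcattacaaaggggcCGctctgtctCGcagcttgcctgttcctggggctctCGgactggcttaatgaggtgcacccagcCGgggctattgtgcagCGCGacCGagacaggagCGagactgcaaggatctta
Pou2af1: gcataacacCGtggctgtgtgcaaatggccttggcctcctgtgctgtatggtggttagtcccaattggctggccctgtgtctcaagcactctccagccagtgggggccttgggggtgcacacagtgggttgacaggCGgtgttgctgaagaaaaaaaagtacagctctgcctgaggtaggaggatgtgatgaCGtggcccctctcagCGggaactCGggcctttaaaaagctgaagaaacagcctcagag
Jchain: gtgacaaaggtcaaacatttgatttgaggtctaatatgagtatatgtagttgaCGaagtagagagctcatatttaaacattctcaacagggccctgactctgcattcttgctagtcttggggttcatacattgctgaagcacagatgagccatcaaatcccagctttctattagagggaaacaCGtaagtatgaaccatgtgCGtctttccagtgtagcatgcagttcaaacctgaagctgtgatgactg
These windows held 37 CG dinucleotides for Reln, 29 for Neurog1, 40 for Igf2bp2, 10 for Elavl2, 5 for Pou2af1 and 3 for Jchain. Reln and Neurog1 starts lay under Suz12 and Ring1b peaks of both genotypes and under H3K27me3 peaks of both K27M libraries. The Igf2bp2 start, the richest in CG of the 6, lay under a K27M H3K27me3 peak in replicate 2 only, and the Elavl2 start under none. The starts of Pou2af1 and Jchain lay under no Suz12 or Ring1b peak of either genotype.

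The domains measured 10.0 to 56.1 kb, with a median of 13.3 kb and quartiles of 11.3 and 17.8 kb, and together 6.88 Mb. The 206 wide domains that touched an EPZ peak were wider, with a median of 24.4 kb and a maximum of 234 kb. At the width threshold, the narrowest domains kept were one of 10002 bp at Syt13 and one of 10014 bp with no protein-coding gene, and a peak of 9977 bp at Epop lay just outside. Only 11 domains had an EPZ peak within 10 kb, and the median distance to the nearest one was 1376 kb. The wide domains were spread over all 19 autosomes, from 48 on chromosome 2, which held 11.1% of them and 9.12% of all autosomal peaks, to 7 on chromosome 16. Chromosome 9 held 45, which is 10.4% of the domains against 8.61% of all autosomal peaks.

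In the second H3WT library in DMSO, which had no part in the choice, the domains were covered almost without gaps. All 434 lay under peaks over at least 50% of their length (100%, exact Clopper-Pearson 95% interval 99.2 to 100%), where 96.4% of all 11055 autosomal peaks of replicate 1 did. Of the domains, 433 were covered to 90% or more. A single peak of replicate 2 contained the whole domain in 412 cases, and such peaks had a median width of 26.2 kb. Intervals here count regions only and say nothing of the spread between cultures.

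The 2 K27M libraries in DMSO gave very different pictures of the same domains. In K27M replicate 1, 211 of 434 domains lay under H3K27me3 peaks over at least 50% of their length (48.6%, 95% interval 43.8 to 53.4%), against 10.6% of all autosomal peaks. In K27M replicate 2 the count was 418 (96.3%, interval 94.1 to 97.9%), against 51.9% of all autosomal peaks. The K27M replicates therefore differed from each other by far more than K27M replicate 2 differed from H3WT replicate 2. The length of the lists moved with this: K27M replicate 1 held 2351 peaks and replicate 2 held 17983, and the H3WT lists held 13360 and 59915. The part of depth in these counts was not tested, since read numbers were not stated, and with 1 H3WT library left over no test between genotypes could be made.

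**Figure D1:**
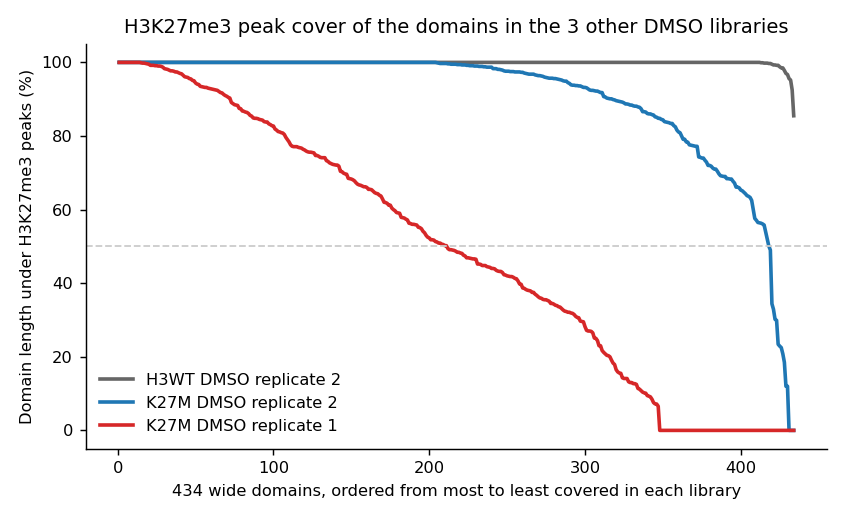
Share of each domain's length (y axis, %) under H3K27me3 peaks of the 3 DMSO libraries that had no part in the choice, with the 434 domains ordered from most to least covered within each library (x axis); the dashed line marks 50%. The H3WT replicate 2 line stays near 100%, K27M replicate 2 crosses 50% after 418 domains and K27M replicate 1 after 211, with 87 domains at 0.

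In K27M replicate 1 the cover ran through the whole range. Its median was 48.6% of a domain, 72 domains were covered to 90% or more, and 87 held no peak. In K27M replicate 2 the median was 99.4%, 317 domains were covered to 90% or more and 4 held no peak; none of those 4 held one in replicate 1 either. The order of the domains was shared in part: those with no peak in replicate 1 had a median cover of 71.0% in replicate 2, and those covered to 90% or more in replicate 1 had at least 97.5% in replicate 2. Called peaks were also in more pieces in K27M replicate 1, where 199 domains held 1 peak, 99 held 2 and 49 held 3 or more. In K27M replicate 2, 317 held 1, 82 held 2 and 31 held 3 or more. Only 13 domains lay wholly inside 1 peak in replicate 1, against 203 in replicate 2. Whether the mark itself was broken up was not tested.

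The wide domains that touched an EPZ peak were covered more fully in K27M replicate 1. Of these 206, 193 (93.7%, interval 89.5 to 96.6%) were covered over at least 50% of their length in K27M replicate 1 and none lacked a peak. The gap was present within classes of width as well: among domains of 10 to 15 kb, 115 of 267 without an EPZ peak (43.1%) and 29 of 31 with one (93.5%) passed that mark, and at 20 kb or more the shares were 64.8% of 71 and 94.8% of 135. This large gap rests on replicate 1: in K27M replicate 2 the shares were 100% of the 206 and 96.3% of the 434, and 100% and 95.9% at 10 to 15 kb. The 1110 autosomal peaks of 5 to 10 kb without an EPZ peak were covered less, at 30.5% (interval 27.8 to 33.3%).

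The share depended on which H3WT list supplied the domains. The same rule applied to the longer list of H3WT replicate 2 gave 2014 regions, of which 8.39% were covered over at least 50% in K27M replicate 1 and 49.7% in K27M replicate 2. Joining peaks of H3WT replicate 1 within 3 kb before the width rule gave 845 regions and shares of 21.5% and 80.2%. On the list of H3WT replicate 2 the shares with a factor peak, given next for the 434 domains, also came out lower, at 8.29% and 16.1% for Suz12 in H3WT and K27M and 17.8% and 17.6% for Ring1b.

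Where the K27M peaks lay inside the domains followed one shape. In K27M replicate 1 the mean cover was 59.0% over the middle 30% of the width and 31.7% over the outer 30%, and in K27M replicate 2 it was 94.9% and 82.4%. H3WT replicate 2 showed no such fall, at 100.0% and 99.7%. Suz12 and Ring1b peaks were also fuller in the middle: Ring1b in H3WT covered 16.2% of the middle and 3.85% of the outer part, and Ring1b in K27M 24.2% and 8.35%. Suz12 in H3WT covered 6.48% and 0.658%, and Suz12 in K27M 17.7% and 5.48%.

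**Figure D2:**
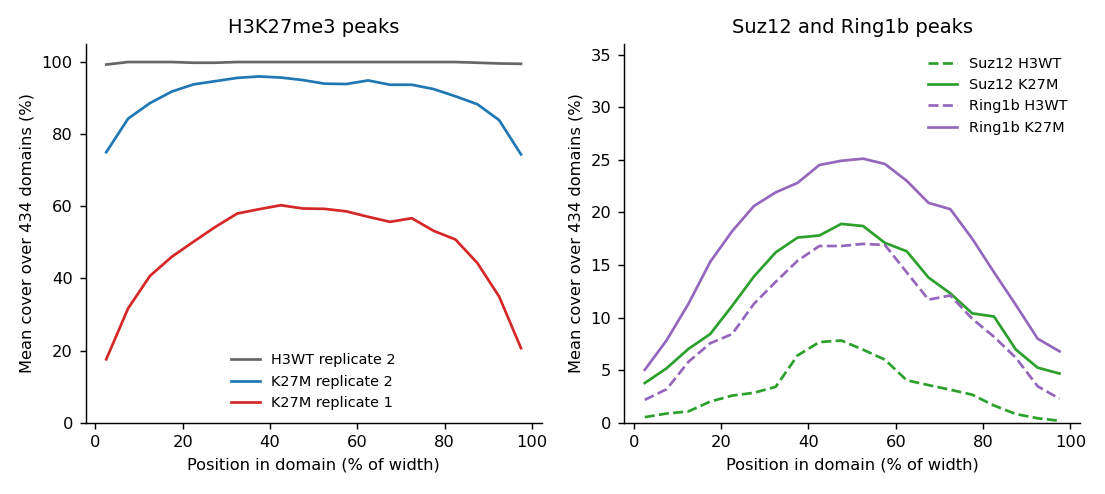
Mean share of the domain (y axis, %) under peaks at 20 positions from one end to the other (x axis, % of width), over 434 domains, for H3K27me3 (left) and for Suz12 and Ring1b (right; dashed H3WT, solid K27M), all in DMSO. Cover by K27M H3K27me3 peaks and by Suz12 and Ring1b peaks is highest near the middle, while H3WT replicate 2 is level.

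Suz12 peaks were found in 84 domains in H3WT (19.4%, interval 15.7 to 23.4%; 3.65% of all autosomal peaks) and in 173 in K27M (39.9%, interval 35.2 to 44.6%; 6.70% of all autosomal peaks). Such overlap counts favour wide regions, and the median width was 13.3 kb for the domains and 1.90 kb for all autosomal peaks. By length, H3WT Suz12 peaks covered 3.05% of the domains and 5.21% of all autosomal peaks. For K27M Suz12 these values were 12.0% and 9.74%. The domains that touched an EPZ peak held Suz12 far more often and at nearly the same share in both genotypes, 79.1% and 80.6%. The K27M Suz12 list was also longer as a whole, with 1252 peaks against 631. Of the autosomal Suz12 peaks, 15.1% lay in the 434 domains in H3WT and 21.9% in K27M, while the share in EPZ-touching domains was 60.4% and 42.6%. With 1 Suz12 library per genotype no replicate check of these differences exists.

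Within the domains, 65 held Suz12 in both genotypes, 108 in K27M only, 19 in H3WT only and 242 in neither. Suz12 took up a small part of a domain: where present, its median cover was 2.41 kb for H3WT against 3.28 kb for K27M. No domain was under H3WT Suz12 peaks over 50% of its length, and 27 were under K27M Suz12 peaks to that extent. Of the 65 with Suz12 in both, 53 had the longer Suz12 cover in K27M, as did 99 of the 144 EPZ-touching domains with Suz12 in both.

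Ring1b peaks were found in 177 domains in H3WT (40.8%, interval 36.1 to 45.6%; 6.79% of all autosomal peaks) and in 195 in K27M (44.9%, interval 40.2 to 49.7%; 7.40% of all autosomal peaks). These counts favour wide regions as well, and by length the gap was far smaller. H3WT Ring1b peaks covered 11.6% of the domains and 10.2% of all autosomal peaks. K27M Ring1b peaks covered 19.7% of the domains and a somewhat lower share of all autosomal peaks. The 2 Ring1b lists held similar numbers of peaks, 1754 and 1808, but their autosomal peaks spanned 5.12 Mb in H3WT and 7.41 Mb in K27M. A total of 147 domains held Ring1b in both genotypes, 48 in K27M only, 30 in H3WT only and 209 in neither. Of the 147, 130 had the longer Ring1b cover in K27M, with a median of 3.71 kb for H3WT against 5.96 kb for K27M; the same held for 168 of 174 EPZ-touching domains with Ring1b in both. No Suz12 or Ring1b peak of either genotype was found in 164 of the 434 domains (37.8%) and in 11 of the 206 EPZ-touching ones (5.34%).

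**Figure D3:**
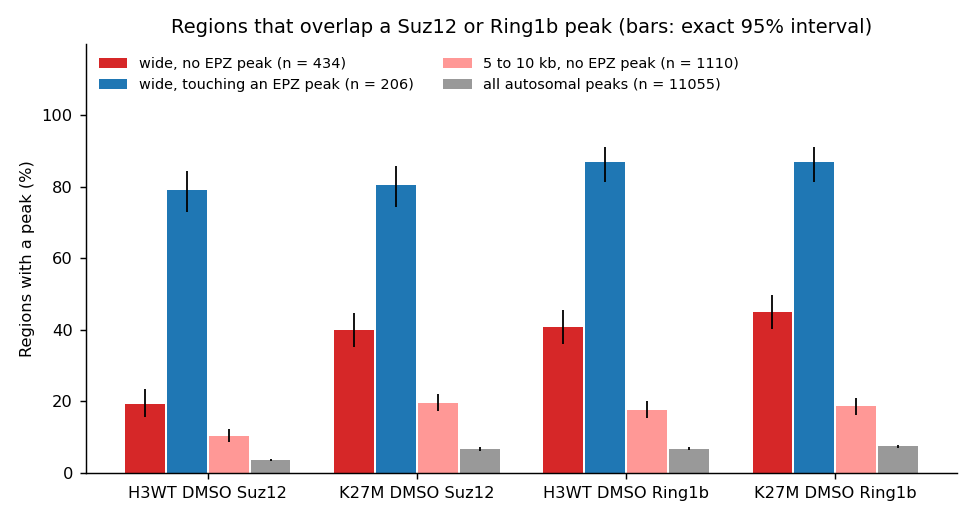
Share of regions (y axis, %) that overlap a Suz12 or Ring1b peak in each of the 4 libraries (x axis, 1 library each), for the 434 domains, the 206 wide domains that touch an EPZ peak, 1110 peaks of 5 to 10 kb without an EPZ peak and all 11055 autosomal peaks; error bars are exact 95% intervals over regions. The 434 domains lie between the EPZ-touching domains and the narrower peaks in every library, and their Suz12 share is 19.4% in H3WT and 39.9% in K27M.

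The H3K27me3 cover in K27M moved with Ring1b in the domain. In K27M replicate 1 the median cover was 81.2% for the 147 domains with Ring1b in both genotypes, 77.2% for the 48 with Ring1b in K27M only, 32.1% for the 209 with none and 0% for the 30 with Ring1b in H3WT only. Of those 30, 20 held no K27M replicate 1 peak at all, and 1 reached 50%. In K27M replicate 2 the 30 again had the lowest median, 73.8%, against 100%, 100% and 97.4%. For Suz12 the replicate 1 medians were 76.7% in K27M only, 74.1% in both genotypes, 31.8% in H3WT only and 29.6% in neither. In K27M replicate 2 they were 100%, 100%, 87.4% and 97.4% in the same order. The 19 domains with Suz12 in H3WT only thus had the lowest median in replicate 2 but not in replicate 1. No K27M replicate 1 peak lay in 8 of those 19 and in 78 of the 242 with Suz12 in neither. The 5 widest domains with Ring1b in H3WT only lay nearest Rpp21, inside Stxbp5l, at the secretoglobin gene Scgb3a2, and inside Srrm3 and Skap1, with cover in K27M replicate 1 of 41.8%, 0%, 0%, 46.7% and 10.1%. The 5 widest with all 4 factor peaks were those of Zfhx4, Sertad4, Fli1, Igf1r and Bcl11a, with 80.8%, 67.8%, 74.5%, 97.7% and 50.2%. The Ring1b groups also differed in width and place. Median widths were 15.8 kb with Ring1b in both genotypes, 13.7 kb in K27M only, 12.0 kb with none and 13.9 kb in H3WT only. The shares at gene ends were 58.5%, 41.7%, 32.1% and 43.3%. These are descriptions of peak lists from the same K27M cells. The part that width, place and depth of the lists have in them was not tested.

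**Figure D4:**
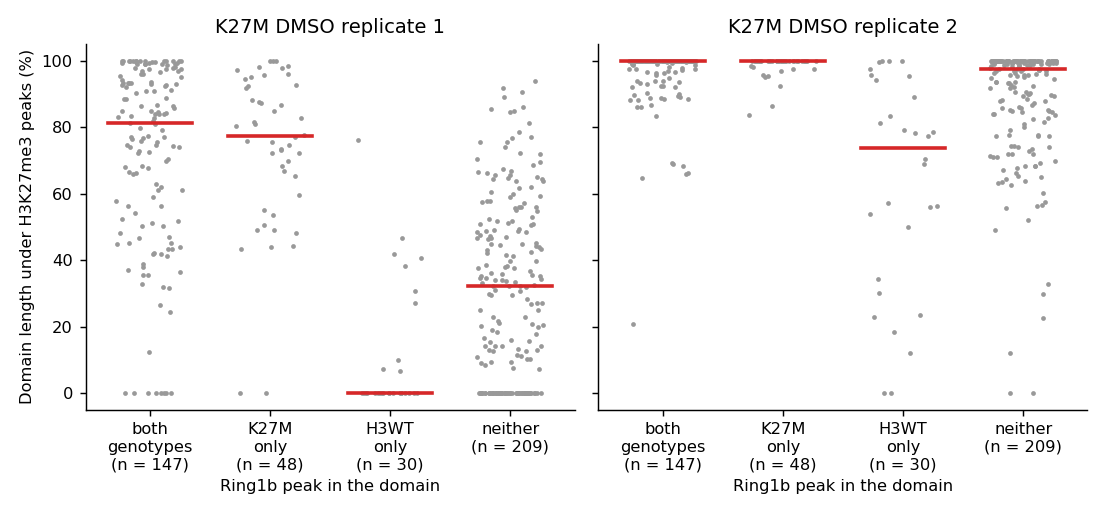
Share of each domain's length (y axis, %) under H3K27me3 peaks of K27M replicate 1 (left) and replicate 2 (right), by whether the domain held a Ring1b peak in both genotypes, in K27M only, in H3WT only or in neither (x axis); each point is a domain and the red line is the median. In replicate 1 the 30 domains with Ring1b in H3WT only have a median of 0%, and the 147 with Ring1b in both have one of 81.2%.

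Protein-coding gene ends lay within 1 kb of 186 domains (42.9%, interval 38.1 to 47.7%; 19.9% of all autosomal peaks), against 81.1% of the EPZ-touching domains. The share was close to that of the peaks of 5 to 10 kb without an EPZ peak, where 444 of 1110 had one. Such counts favour wide regions, and the part of width was not tested. Median widths were 1.90 kb for all autosomal peaks, 13.3 kb for the domains and 24.4 kb for the EPZ-touching ones. Of the 434 domains, a further 93 lay inside a gene away from its ends and 155 between genes. The latter lay a median of 48.1 kb and at most 602 kb from the nearest gene end. Domains at gene ends held Suz12 more often: 37.1% in H3WT and 54.8% in K27M, against 5.16% and 27.1% of those between genes. In Ring1b the gap was narrower, 53.2% and 57.0% against 30.3% and 37.4%. Their median cover in K27M replicate 1 was 62.4%, against 44.5% inside genes and 41.8% between genes, but in K27M replicate 2 the 3 medians were 99.4%, 98.7% and 99.7%.

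In all, 214 of 20665 autosomal protein-coding genes (1.04%) had an end within 1 kb of one of the 434 domains and 234 (1.13%) within 1 kb of an EPZ-touching domain. The 2 sets differed in the families they held. Of 164 listed homeobox and paired-box genes, which specify regional and cell identity, 9 (5.49%) lay at the 434 domains and 109 (66.5%) at EPZ-touching ones. The list was partial: Dmbx1, Msx3 and Zfhx4, which were not on it, also had ends at the 434 domains. Of 156 other lineage transcription factors, 19 (12.2%) lay at the 434 domains and 53 (34.0%) at EPZ-touching ones. For signalling genes the counts ran the other way, 14 of 130 (10.8%) and 8 (6.15%), and so did those for ion channels and transmitter receptors, 10 of 208 (4.81%) and 5 (2.40%), and axon guidance and adhesion genes, 7 of 135 (5.19%) and 0. None of 33 housekeeping genes and none of 38 Polycomb and H3K27 enzyme genes lay at one of the 434 domains. The same held for all 102 matrix, keratin and claudin genes. Of 65 listed blood, immune and endothelial genes, 1 (1.54%), Flt1, lay at one, near the 1.04% of all genes. That list was partial and does not measure how common such genes were. The immune genes Pou2af1, Jchain, Cd3g and Cd3d had ends at the domains but were not on it. Tal1 and Fli1 were counted among the lineage factors. These lists were drawn up with earlier results of these data known, so the counts are descriptions.

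The 19 domains of lineage factors had a median cover of 90.3% in K27M replicate 1, and 16 of them passed 50%. In that library the median was 62.4% over all 186 domains at gene ends and 48.6% over all 434. K27M replicate 2 showed little gap, with medians of 100%, 99.4% and 99.4% in the same order. Tal1, a master regulator of blood formation, lay in a domain of 19.2 kb that was covered fully in both K27M replicates; Suz12 covered 1.18 kb of it in H3WT and 13.5 kb in K27M, and Ring1b 8.47 kb and 16.1 kb. Neurod1, a neuronal differentiation factor, had 99.8% cover in K27M replicate 1, with Suz12 over 9.05% of its domain in H3WT and 44.2% in K27M. Neurog2, a proneural factor, was covered fully in both K27M replicates, had no Suz12 peak in H3WT, and lay under K27M Suz12 peaks over 94.4% of its domain. Neurog1 differed little between genotypes in either factor, with 4.70 kb and 4.79 kb of Suz12 and 7.33 kb and 9.08 kb of Ring1b, and had 77.1% cover in K27M replicate 1. Hand1, a heart and limb factor, had no Suz12 peak in either genotype; Ring1b covered 4.02 kb of its 16.9 kb in H3WT and all of it in K27M. Fli1, an endothelial and blood factor, had the widest domain of the list, 37.0 kb, with 74.5% cover in K27M replicate 1. The 3 domains of the list under 50% were those of Fezf2, a forebrain neuron factor, at 46.9%, Scrt2 at 31.9% and Tfap2c, a germ cell and placenta factor, at 0%. At Tfap2c the H3WT peaks of Suz12 over 1.99 kb and Ring1b over 2.08 kb had no counterpart in K27M, and K27M replicate 2 covered 69.0%.

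Of the homeobox genes, Nkx3-2, a skeletal patterning factor, lay in 36.2 kb with 92.6% cover in K27M replicate 1, and En2, a midbrain and hindbrain factor, in 29.8 kb with 88.8%. Both lacked Suz12 peaks in H3WT and had them in K27M, over 1.68 kb and 13.4 kb. Nkx2-9 went the other way in Suz12, with 3.93 kb in H3WT and no peak in K27M, at 62.9% cover. The 9 domains of listed homeobox and paired-box genes had a median of 83.8% in K27M replicate 1, and none lacked a peak there. In K27M replicate 2 their median was 100%, against 99.4% over all 434 domains.

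Cdkn2a, which encodes the cell cycle inhibitors p16INK4a and p19ARF, was the only gene of 27 cell cycle inhibitor and senescence genes at one of the 434 domains. That is 3.70% of the list, against 1.04% of all autosomal protein-coding genes. Its domain, chr4:89266288-89285368, was covered over 100% of its length in H3WT replicate 2 and in both K27M libraries. Suz12 had no peak there in H3WT and covered 8.66 kb in K27M, and Ring1b covered 11.4 kb and 18.2 kb. The gene's listed start lay under Suz12 in K27M only and under Ring1b in both genotypes.

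Signalling genes were mixed. Igf1r, the receptor for insulin-like growth factor 1, had an end at a domain of 29.1 kb with 97.7% cover in K27M replicate 1, with Suz12 over 8.26% of it in H3WT and 51.5% in K27M. Wnt6 and Wnt10a, neighbouring Wnt ligands, shared 31.2 kb at 80.9% cover. Dll4, a Notch ligand of vessels, had 98.2%, and Dkk1, a Wnt antagonist, 72.3%. Cover in K27M replicate 1 was lower at Rspo1, Bmp4 and Gdf10, at 40.6%, 44.0% and 33.9%. In K27M replicate 2 these domains had 79.1%, 69.2% and 65.3%. Among the listed signalling genes only Fgf20, a fibroblast growth factor, had no K27M replicate 1 peak. Its cover in replicate 2 was 83.4%, and its 2.70 kb of H3WT Ring1b had no counterpart in K27M.

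Channel and receptor genes, with a median of 43.8% over 10 domains in K27M replicate 1, and adhesion genes, with 48.7% over 7, lay near the 48.6% of all 434 domains. In K27M replicate 2 their medians were 96.1% and 95.2%. The glutamate receptor genes Grik3 and Grin2b were at 43.2% and 44.4%, and Scn4b, a sodium channel subunit, at 35.5%. Cntn2, an axonal adhesion protein, had 48.7% cover with no Suz12 or Ring1b peak in either genotype. Epha7, a guidance receptor, had all 4 factor peaks and 69.7% cover. Of 55 neural stem and glial genes, 2 (3.64%) lay at the domains, against 1.04% of all autosomal protein-coding genes. Id4, an inhibitor of bHLH factors, had 44.8% cover in K27M replicate 1 and 89.8% in replicate 2, and Ugt8a, an enzyme of myelin lipid synthesis, had 0% and 83.6%.

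Imprinted and germ cell genes were also present, 7 of 56 (12.5%) and 4 of 54 (7.41%), against 1.04% of all autosomal protein-coding genes. EPZ-touching domains held 3 (5.36%) and 2 (3.70%) of them. Ndn and Magel2, imprinted neighbours, had ends at a domain of 28.6 kb with 96.5% cover in K27M replicate 1, where Ring1b covered 52.7% in H3WT and 94.1% in K27M, and Suz12 had no peak. Meiob, a meiotic recombination gene, lay in 43.1 kb with 92.7% cover and 17.3 kb of Suz12 in K27M but none in H3WT. Dazl, a germ cell RNA-binding protein, differed from both: Ring1b covered 8.06 kb of its 13.1 kb in H3WT and none in K27M, and H3K27me3 cover was 100% in H3WT replicate 2, 0% in K27M replicate 1 and 18.5% in K27M replicate 2.

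**Figure D5:**
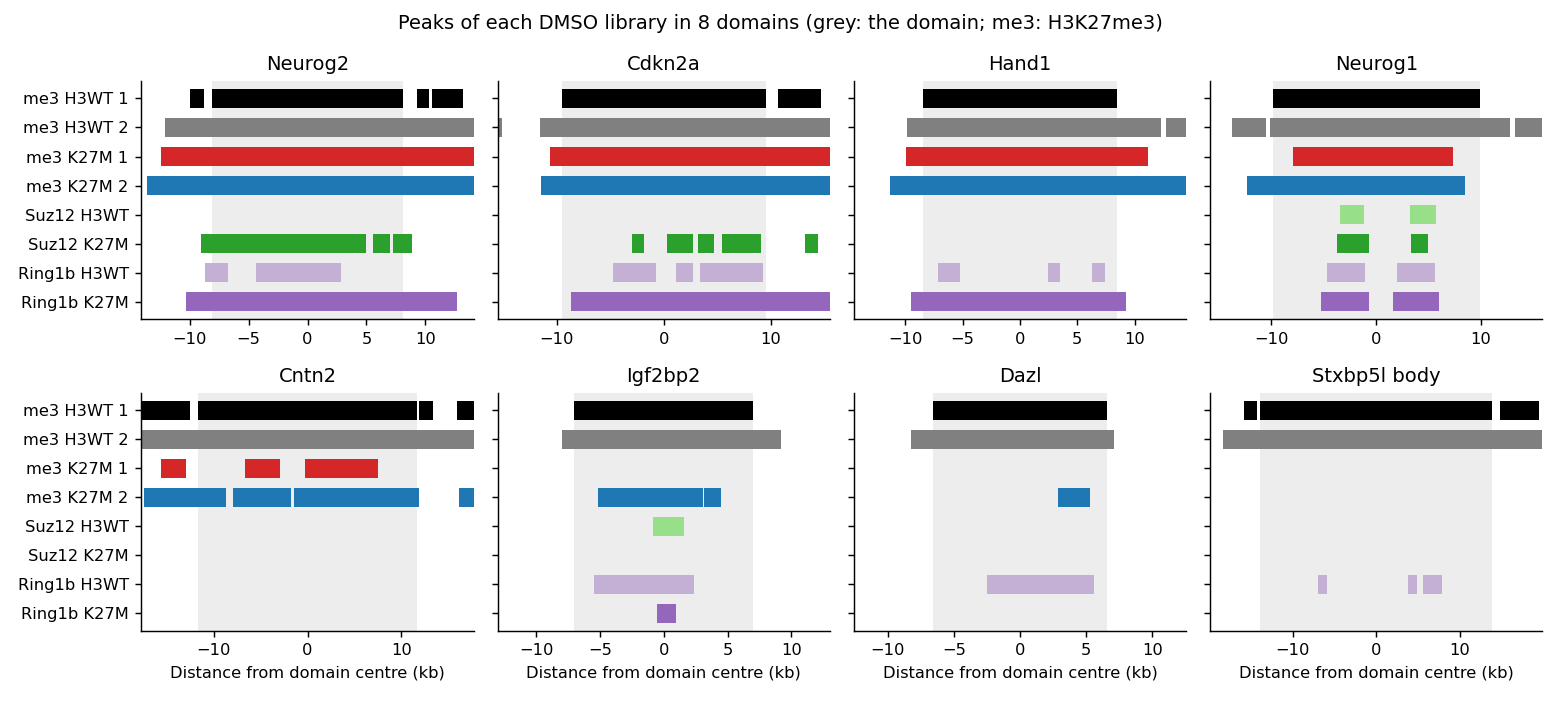
Peaks of the 8 DMSO libraries (rows) across 8 domains, as distance from the domain's centre (x axis, kb); grey shading marks the domain, and "Stxbp5l body" is a domain inside that gene. The upper 4 domains are covered in K27M, with Suz12 and Ring1b longer in K27M at Neurog2 and Cdkn2a, and Dazl and Stxbp5l have H3WT Ring1b peaks and no K27M ones.

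The widest domain, 56.1 kb inside Iqch, had 99.2% cover in K27M replicate 1, and Ring1b covered 16.9 kb of it in H3WT and 39.4 kb in K27M. Next were domains without a protein-coding gene, of 54.3 kb, with Prok2 the nearest gene, and 52.1 kb, with Tle3 the nearest, which held no Suz12 or Ring1b peak in either genotype and had 70.3% and 50.5% cover in K27M replicate 1. Zfhx4, a zinc finger and homeodomain factor, lay in 45.3 kb with all 4 factor peaks and 80.8% cover.

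Many domains came in groups. Another domain lay within 50 kb of 140 of them (32.3%), in 52 groups, 9 of which held 4 or more. The longest run, chr6:99884517-100175784, held 10 domains over 291 kb without a protein-coding gene. No H3WT Suz12 or Ring1b peak lay in them, while K27M Suz12 and K27M Ring1b each had peaks in 2. Their length was covered to 51.5% in K27M replicate 1 and 98.6% in K27M replicate 2. The imprinted run of Ndn, Magel2 and Mkrn3, chr7:62204477-62430869, held 6 domains with 73.3% cover, and Ring1b peaks in 5 of them in each genotype. Inside Stxbp5l, a syntaxin-binding protein gene, 4 domains at chr16:37133327-37264162 had no K27M replicate 1 peak and 14.6% cover in K27M replicate 2. Ring1b covered 18.7 kb of these 4 in H3WT and none in K27M. Of the 4 domains in the whole set with no peak in either K27M library, 3 lay there; the other was at Sycp2, a meiotic chromosome protein. The domain at the Stxbp5l start, 45.6 kb wide, retained 24.4% and 90.3% cover, with Ring1b at 19.2 kb in H3WT and 2.91 kb in K27M.

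A domain of 21.3 kb without a protein-coding gene, chr3:118428984-118450285, contained the hairpin of Mir137, a brain microRNA. It was covered fully in both K27M libraries, had Suz12 over 9.30 kb in K27M and none in H3WT, and Ring1b over 5.17 kb in H3WT and 20.8 kb in K27M. The mature sequences are shown, with the seed (bases 2 to 8) in capitals.
mmu-miR-137-5p: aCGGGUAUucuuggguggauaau
mmu-miR-137-3p: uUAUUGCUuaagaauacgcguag
The 2 arms have different seeds.

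The gene starts inside the domains, as far as RefSeq's promoter table lists them, were followed one by one. It lists 119 genes with a start in one of the 434 domains. K27M replicate 1 H3K27me3 peaks covered the start of 91 (76.5%) of them, beside 51.9% of the domains' length. In K27M replicate 2 the gap was small, at 117 genes (98.3%) beside 91.6% of the length. H3WT Suz12 covered the start of 39 genes (32.8%) and K27M Suz12 of 52 (43.7%), beside 3.05% and 12.0% of the length. Ring1b covered 49 (41.2%) and 57 (47.9%), beside 11.6% and 19.7% of the length.

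CG content of the 250 bases before these starts, counted as the dinucleotide CG, which reads the same on both strands, was given with its ratio to the number expected from the C and G content. A ratio of 0.6 or more was found at 76 of 133 starts in the domains (57.1%), at 62.9% of 178 starts in EPZ-touching domains and at 45.9% of all 20085 listed autosomal starts. Starts under a Suz12 or Ring1b peak had a median of 18 CG and 67.4% passed that ratio; those under neither had 7.5 and 31.6%. The 20 starts with neither factor and no K27M replicate 1 peak, Jchain and Pou2af1 among them, had a median of 5.5. The 12 starts with a Suz12 or Ring1b peak but no K27M replicate 1 peak, Igf2bp2 and Elavl2 among them, had a median of 24.5. That was above the 17 of the 83 starts with both. The 12 starts came from only 9 genes, and some of their windows overlap, so they are not separate promoters.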

How the data were processed

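Peak lists of 12 of the 14 samples (mouse, mm10) were used; the 2 IgG libraries were not analysed here. Per the submitters' processing notes Bowtie 1.1.2 and mm10 were named; the peak caller, its threshold and the read depth are not given in the sources used here. Each list the authors deposited holds chromosome, start and end of every peak, per library, the narrowest being 1001 bp, and no height, so cover is a length under called peaks and not an amount of mark. A library with more reads can give more and wider peaks.

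Touching peaks of a library were merged (21 in all) for cover; the domains are the peaks as deposited. Cover was computed with Python 3.11.15, pandas 2.3.3 and numpy 2.4.6, with an overlap of at least 1 bp, and checked on simulated intervals. Intervals are exact Clopper-Pearson (scipy 1.17.1) at 95% and cover counting of regions only. Gene ends come from RefSeq (GRCm38.p6), which gives no strand for all genes; a start is listed for 16457 of 20665 autosomal protein-coding genes and for 154 of the 214 at the domains. The 13 gene lists matched 1223 of 1255 entries to autosomal genes. The 25 peaks of at least 10 kb on X were left out by the rule. One peak just under the width threshold is not reported here.

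No test between groups was made: H3WT replicate 1 and the EPZ libraries chose the domains, 1 H3WT H3K27me3 library remained, and Suz12 and Ring1b had 1 library per genotype. Named genes are those of the 10 widest domains, of the 5 widest with Suz12 and Ring1b in both genotypes, with Suz12 in K27M only, with Ring1b in H3WT only, with 90% or more cover in the 3 other libraries or with no K27M peak, and up to 5 per gene list by domain width. Neurog2, Igf2bp2, Reln, Elavl2, Pou2af1, Jchain, Cd3g, Cd3d, Dmbx1, Msx3, Fgf20, Rspo1, Bmp4, Gdf10, Fezf2, Scrt2, Tfap2c, Mkrn3 and Mir137 were added after their values were seen. Domains and lists were chosen with earlier results of these data known. The width rule, the EPZ rule, overlap minimums and gene windows were varied.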

Additional observations from a re-analysis of the deposited data

How the results depend on the processing

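The shares of the 434 domains were recomputed under other settings, and a share was taken as moved where it left the 95% interval of the reported value. Leaving out each EPZ library, or H3WT replicate 1 (the same rule on H3WT replicate 2, not applicable to cover by that library), gave ranges of 8.39 to 50.3% for K27M replicate 1 cover, 49.7 to 96.5% for K27M replicate 2, 100 to 100% for H3WT replicate 2, 8.29 to 20.8% for H3WT Suz12, 16.1 to 40.8% for K27M Suz12, 17.8 to 41.7% for H3WT Ring1b, 17.6 to 45.9% for K27M Ring1b and 37.5 to 43.7% for gene ends; each lowest value except that of H3WT replicate 2 came from the H3WT replicate 2 list, and leaving out an EPZ library moved none. A minimum of 8 kb gave 43.8% for K27M replicate 1 and 39.9% for K27M Ring1b. A minimum of 15 kb gave 57.5% for K27M replicate 1, 48.5% for K27M Suz12, 56.3% for H3WT Ring1b and 59.3% for K27M Ring1b. Joining peaks within 3 kb gave 21.5% and 80.2% for the K27M replicates, 13.1% and 28.2% for Suz12 in H3WT and K27M, and 28.8% and 31.2% for Ring1b. Any overlap gave 80.0% and 99.1%, and 90% cover 16.6% and 73.0%, for the K27M replicates. Whole gene intervals gave 62.9% for genes, and listed starts, chosen after seeing the data, 29.5%. The cause of these shifts was not tested. No paired analysis was possible because the results come from no test. Unknown read depth limits every count, since an absent peak may be a shallow library.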
